A study of Mus musculus with 2 samples.

Results

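The circadian clock genes described here are the 10 core genes Clock, Arntl, Per1, Per2, Per3, Cry1, Cry2, Nr1d1, Nr1d2 and Dbp, taken by symbol from GENCODE M21 (mouse assembly mm10). They are 10 of 21938 annotated protein-coding genes, and all 10 were measured in both libraries. Open chromatin was mapped by DNase-seq, in which DNase I cuts DNA where no nucleosome protects it, in frontal cortex of male mice aged 14 days. The mice were B6CASTF1/J, F1 hybrids of C57BL/6J and the wild-derived strain CAST/EiJ. The 2 libraries, replicate 1 and replicate 2, form 1 group, and the labels describe each as made from 3 males. Their tissue samples are separate but carry 1 donor number, so part of the spread between libraries may be technical. The time of day at which the tissue was taken is not given in the sources used here. With 1 group and no contrast, no p-values were computed. All values below are descriptions, given per library or as mean ± SD (n = 2).

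The core clock is a feedback loop of transcription. CLOCK and ARNTL (also called BMAL1) bind E-boxes as a pair and activate the Per and Cry genes, whose proteins return to the nucleus and inhibit that pair. The same pair activates Nr1d1 and Nr1d2, nuclear receptors that repress Arntl through ROR elements, where the ROR receptors activate. It also activates Dbp, a bZIP factor that activates genes with D-boxes. Most tissues run this loop, with the suprachiasmatic nucleus of the hypothalamus as the pacemaker that sets their phase, and Per1 and Per2 are in addition induced by cAMP and calcium signals in neurons.

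Replicate 1 had 75753 peaks and 156390 footprints, and replicate 2 had 77035 peaks and 202779 footprints. Footprints are short runs of bases with few cuts within open DNA, which bound proteins can leave. Overlapping peaks of the libraries formed 53624 shared regions. A promoter peak was present in both libraries at 7 of 8 marker genes of cortical excitatory neurons, 2 of 2 of interneurons, 2 of 4 of astrocytes, 1 of 2 of endothelium, 1 of 3 of microglia and 0 of 3 of oligodendrocytes. It was present at 2 of 3 striatal markers, 0 of 3 markers of tissue behind the forebrain and 0 of 2 of liver. Over all protein-coding genes the share was 59.7%, and the lists are short. The peaks of the striatal marker Adora2a lay at different sites in the libraries. Slc17a7, Slc1a3 and Cldn5 had a promoter peak in replicate 2 alone, and the liver marker Apoa1 in replicate 1 alone.

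Sequences are shown for some of the stretches of these genes in which a clock motif lay in a footprint of both libraries. Others, such as that around the footprinted E-box in an intron of Cry2, are not printed. The sequences show where the matched letters lie in the open DNA, and their action as control elements was not tested. They were read from the RefSeq mouse assembly GRCm38.p6, the C57BL/6J reference of mm10, for the 9 genes other than Per2, and run 5′ to 3′ on the strand of the gene. Capitals mark the motifs. The promoter of Per1 (chr11:69094826-69094945) and a later start site of the same gene (chr11:69098726-69098845) each hold an E-box, CACGTG.
Per1 promoter: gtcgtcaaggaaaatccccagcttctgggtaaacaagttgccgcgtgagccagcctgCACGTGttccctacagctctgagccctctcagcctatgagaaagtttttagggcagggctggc
Per1 later start: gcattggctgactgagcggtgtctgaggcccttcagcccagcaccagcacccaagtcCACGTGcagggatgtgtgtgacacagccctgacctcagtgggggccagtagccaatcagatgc
The promoter of Cry1 (chr10:85185065-85185171) holds an E-box and, before it, the variant CACGTT, which reads AACGTG on this strand.
Cry1 promoter: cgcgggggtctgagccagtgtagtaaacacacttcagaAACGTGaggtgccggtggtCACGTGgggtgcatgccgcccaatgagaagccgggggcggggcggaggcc
The intronic promoter region of Nr1d2 (chr14:18238468-18238587) holds a pair of E-boxes, of which the one printed later lay in footprints of both libraries. The internal region of Dbp (chr7:45707712-45707831) holds E-boxes at both ends, each in footprints of both libraries, and the variant between them.
Nr1d2 internal region: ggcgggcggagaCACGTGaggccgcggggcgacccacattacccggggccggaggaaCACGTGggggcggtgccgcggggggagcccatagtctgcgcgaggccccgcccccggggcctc
Dbp internal region: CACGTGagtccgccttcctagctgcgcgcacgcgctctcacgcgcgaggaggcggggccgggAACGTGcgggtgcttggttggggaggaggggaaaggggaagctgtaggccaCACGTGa
The promoter of Per3 (chr4:151044760-151044879) holds a pair of D-boxes, TTATGTAA, and the one printed later lay in footprints of both libraries. The intron of Nr1d1 (chr11:98774060-98774179) holds an E-box and a D-box, which reads TTACATAA on this strand, both in footprints of both libraries. The intron of Per1 (chr11:69097146-69097265) holds a cAMP response element, TGACGTCA, the element that CREB binds.
Per3 promoter: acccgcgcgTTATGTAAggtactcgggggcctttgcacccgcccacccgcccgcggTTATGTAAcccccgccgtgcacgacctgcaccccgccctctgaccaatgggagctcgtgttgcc
Nr1d1 intron: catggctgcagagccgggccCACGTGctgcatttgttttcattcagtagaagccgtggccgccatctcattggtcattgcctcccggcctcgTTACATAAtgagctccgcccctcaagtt
Per1 intron: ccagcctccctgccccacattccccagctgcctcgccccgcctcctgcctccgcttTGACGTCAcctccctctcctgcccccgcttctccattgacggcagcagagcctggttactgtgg

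In both libraries, all 10 clock genes had a promoter peak, and at the same site, against 59.7% of all protein-coding genes with one in both. A promoter here reaches 1000 bp to either side of each annotated start of the gene, and its height is the deposited signal value of the tallest peak there, on a scale set per library by the authors. All 10 promoters also held a footprint shared by both libraries, against 54% of all protein-coding genes. That 54% stands for 11856 of 21938 genes, with closed promoters included. Only 13090 genes were open in each library, so the footprints may add little to the openness itself. The share among open promoters alone was not computed. The median height over the 10 genes was 9.004 in replicate 1 and 10.2 in replicate 2, against 2.95 and 2.80 over all genes with a promoter peak in that library. By mean height, 7 of the 10 stood at or above percentile 90 of the genes whose promoters were open in both. In bulk tissue, fewer cells with an open promoter and a less open promoter in each cell cannot be told apart.

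The period genes spanned most of this range. Per1 (chr11:69095217-69109960, plus strand) had heights of 19.3 in replicate 1 and 20.8 in replicate 2 (20.1 ± 1.04), at percentile 99.9. Its peak covered chr11:69094781-69095200, directly before the first start site. Per2 (chr1:91415982-91459324, minus strand) had 10.3 and 10.4 (10.4 ± 0.073), at percentile 94.1. Per3 (chr4:151003652-151044665, minus strand), the period gene least needed for rhythms in mice, had 6.09 and 6.26 (6.17 ± 0.117), at percentile 79.2. The 3 genes did not overlap in height.

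The cryptochromes, the stronger repressors of CLOCK and ARNTL, were both open. Cry2 (chr2:92403646-92434043, minus strand) had 9.02 in replicate 1 and 9.93 in replicate 2 (9.47 ± 0.643). Cry1 (chr10:85131700-85185064, minus strand) had 5.83 and 7.56 (6.69 ± 1.22). Cry2 was thus taller than Cry1 in each library. Cry1 had a second region centred 326 bp before its start, chr10:85185241-85185540, with 4.75 and 6.54.

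The activators differed from each other. Arntl (chr7:113207465-113314126, plus strand) had 8.99 in replicate 1 and 10.5 in replicate 2 (9.75 ± 1.07), at percentile 92.9. Clock (chr5:76209868-76304792, minus strand) had 2.35 and 3.21 (2.78 ± 0.607), at percentile 47.0, the lowest of the 10 genes and near the median of all open promoters. Clock is also the member whose percentile moved most between libraries, 41.5 in replicate 1 and 55.3 in replicate 2.

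The output and repressor genes were tall. Dbp (chr7:45705088-45710203, plus strand) had 14.8 in replicate 1 and 16.8 in replicate 2 (15.8 ± 1.40), at percentile 99.1. Nr1d1 (chr11:98767932-98775333, minus strand), which encodes REV-ERBα, had 12.2 and 13.7 (12.9 ± 1.05), at percentile 97.7. Nr1d2 (chr14:18204054-18239127, minus strand), which encodes REV-ERBβ, had 8.90 and 9.39 (9.14 ± 0.350), at percentile 91.4. In the order of heights, Per1, Dbp and Nr1d1 were each separate from the next gene in both libraries. Arntl overlapped Per2, Cry2 and Nr1d2, Cry2 overlapped Nr1d2, and Cry1 overlapped Per3. Clock was separate below all others.

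**Figure D1:**
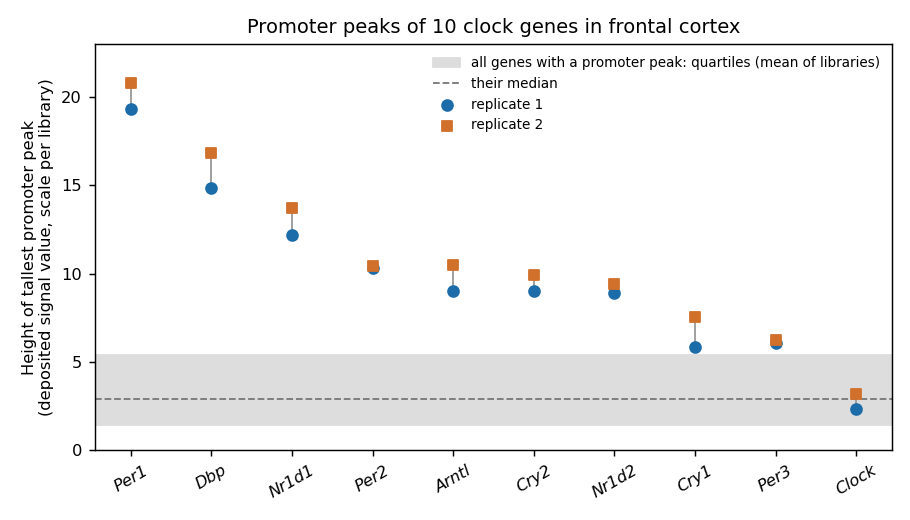
Height of the tallest promoter peak (deposited signal value, linear axis from 0) of the 10 clock genes in replicate 1 (circles) and replicate 2 (squares), beside the quartiles (band) and median (dashed line) of all genes with a promoter peak, averaged over the libraries. Per1 stands highest at 19.3 and 20.8, and Clock, at 2.35 and 3.21, lies inside the band.

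The promoters of the clock genes were rich in G and C. Both RefSeq promoters of Per1 lie at its later starts, so that its tallest promoter region is not among those counted here. Over the 13 RefSeq promoters of the 9 genes (300 bases each), the median GC content was 64.7%, with a range from 47% to 76.7%, against a median of 52.7% over 32851 promoters. The lowest and the highest value both belong to alternative starts of Clock. A GC box, GGGCGG, the element of SP factors, was present in 11 of the 13 promoters (84.6%) and in 35.7% of all promoters. A CCAAT box, the element of NF-Y, was present in 10 of the 13 (76.9%) and in 37.4% of all promoters. Nr1d1 was the gene without either box. The promoters compared with include those that were not open. Of all shared regions with a mean height of at least 2.82, 67.4% held a GC box and 46.7% a CCAAT box. Those regions are not 300 bases each, so the shares are only a rough guide. Some of the 13 promoters overlap each other, at Arntl and at Clock.

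Over each gene plus 20 kb on both sides, 832 kb in all, there were 70 shared regions. Of these, 23 lay at start sites of the clock gene itself, 14 at start sites of a neighbouring gene and 33 were distal, meaning farther than 1000 bp from every start site of a protein-coding gene. The median gene had 0.727 shared regions and 0.187 distal ones per 10 kb of its window, against 0.351 and 0.115 over all protein-coding genes. At least 1 shared distal region was found for 9 of the 10 genes, against 56.7% of all protein-coding genes. The exception was Dbp. The median height of the 33 distal regions was 2.02 in replicate 1 and 1.93 in replicate 2, against 0.920 and 0.851 over all 34565 distal shared regions. The genes were uneven: Nr1d1 had 8 distal regions and Per1 and Cry2 had 7 each, while Clock, Per3, Cry1 and Nr1d2 had 1 each.

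Nr1d1 had the tallest distal region of the 10 windows. It lay in an intron 1293 bp after the start, chr11:98773861-98774220, with 12.3 in replicate 1 and 13.5 in replicate 2 (12.9 ± 0.914). That is as tall as the promoter of the gene in both libraries. A row of 6 further distal regions lay upstream of the gene, between 6997 and 13697 bp before the start. The tallest of them, chr11:98783381-98783640, had 6.50 and 7.99. The region chr11:98786941-98787180 had 6.15 ± 1.62, and chr11:98785821-98786100 had 3.32 and 4.23. All 6 were taller in replicate 2, by 0.08 to 0.54 on the log2 scale. The shared regions per 10 kb of the Nr1d1 window stood at percentile 99.7 of all genes, and its distal regions at percentile 99.9. The remaining distal region, chr11:98750681-98751100, lies inside the neighbour Thra. Beyond the upstream row, the region chr11:98795041-98795357 lies at a start of Msl1. Distal regions of this window could thus also be assigned to these neighbours.

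Per1 had 14 shared regions, the most of the 10 genes. An intronic region 1923 bp after the first start, chr11:69096981-69097300, had 7.62 in replicate 1 and 7.25 in replicate 2 (7.43 ± 0.262), and it holds the cAMP response element printed above. Regions at later annotated starts inside the gene had 6.78 and 6.23 at chr11:69098741-69099000 and 3.91 and 3.40 at chr11:69099921-69100220. Beyond the gene, the tallest distal region was chr11:69124121-69124420 with 4.43 and 3.47. Another, chr11:69110835-69111040, had 2.33 and 2.67, and the intronic region chr11:69097604-69097800 had 2.38 and 1.94. The 4 regions at neighbouring starts belonged to Vamp2, 9130213A22Rik and Aloxe3, with mean heights from 2.13 to 4.66.

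Cry2 had 7 distal regions, 3 of them in its own introns. The tallest lay beyond the end of the gene and inside the neighbour Mapk8ip1, chr2:92389301-92389680, with 5.65 in replicate 1 and 5.35 in replicate 2 (5.50 ± 0.214). The intronic regions chr2:92423801-92424060, with 2.82 and 3.05, and chr2:92427961-92428200, with 2.52 and 2.19, were lower. A region 4123 bp upstream had 2.38 and 1.70. Arntl had 5 distal regions, all inside the gene. The tallest pair lay 41875 and 42246 bp after the first start, with 1.93 and 2.05 at chr7:113249221-113249460 and 1.42 and 1.70 at chr7:113249581-113249841. The next were chr7:113268468-113268586 and chr7:113311881-113312060, with mean heights of 1.04 and 0.995.

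Dbp had 8 shared regions and all lay at start sites, 5 at its own and 3 at those of Car11, Sphk2 and Rpl18. After its main promoter, its tallest region was chr7:45707621-45707880 with 5.16 in replicate 1 and 5.59 in replicate 2 (5.37 ± 0.303). It is the region with the E-boxes at both ends of the printed stretch. It lies in an intron of the coding transcripts and counts as a promoter because a transcript with a retained intron starts nearby. Binding of CLOCK and ARNTL to E-boxes in the introns of Dbp is known from mouse liver. The regions at starts of Sphk2 and Rpl18 had 9.39 and 9.43 at chr7:45715201-45715460, and 9.71 and 8.95 at chr7:45717941-45718140.

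The other genes had few regions away from their starts. Nr1d2 had a second tall region in an intron, chr14:18238361-18238740, with 7.06 in replicate 1 and 8.50 in replicate 2 (7.78 ± 1.02), counted as a promoter because it lies 461 bp from an annotated start. Its 1 distal region had a mean height of 0.922. Per2 had intronic regions at chr1:91457761-91458020, with 1.96 and 1.32, and chr1:91428740-91428888, with 1.13 and 1.06. The 4 regions at neighbouring starts in its window belonged to Hes6 and Ilkap, the tallest with 5.29 and 4.70 at Hes6. The single distal regions of Clock (0.493 ± 0.022), Cry1 (0.692 ± 0.0832) and Per3 (0.754 ± 0.0991) were the 3 lowest of the 33. Per3 lies wholly inside the annotated span of Camta1, on the same strand, so its regions could also be assigned to that gene.

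**Figure D2:**
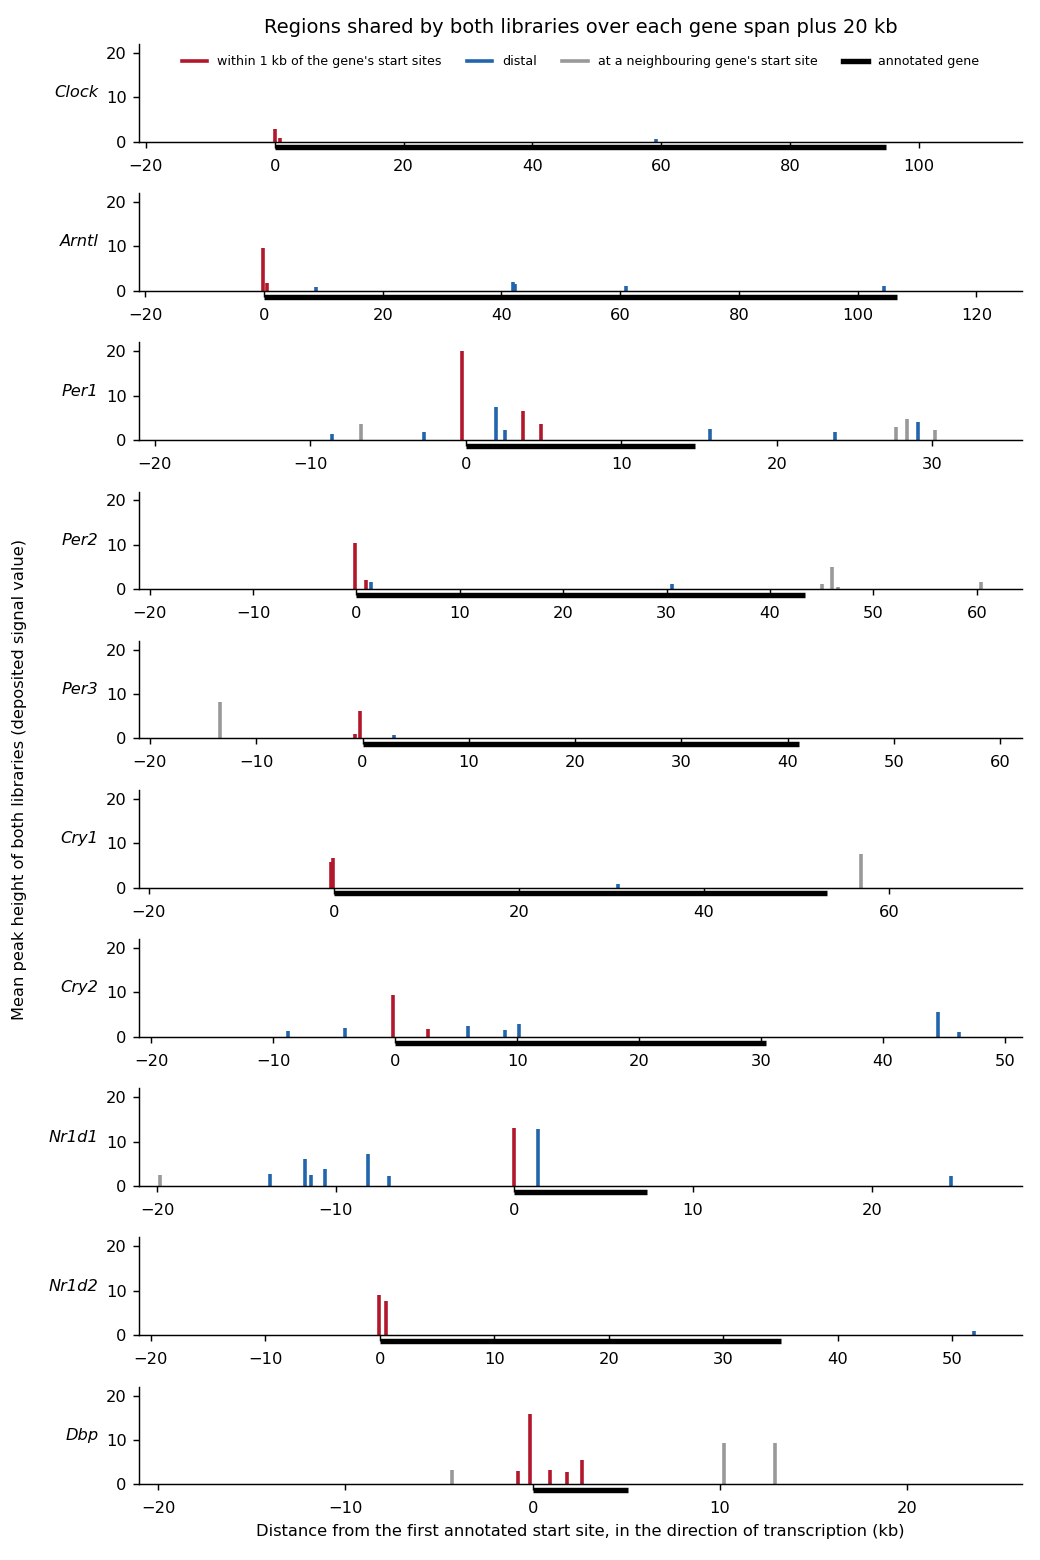
Shared regions over the 10 gene windows, drawn by distance from the first annotated start in the direction of transcription (kb, a scale per gene), with the mean height of both libraries on a common linear axis. Red lines are regions at starts of the clock gene, blue lines are distal and grey lines lie at starts of neighbouring genes. The intronic region of Nr1d1 (12.9) stands beside its promoter (12.9), and Clock has no region above 2.78.

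Footprints were dense in these regions. The 10 windows held 313 footprints in replicate 1 and 436 in replicate 2. Of these, 242 (77.3%) and 225 (51.6%) overlapped a footprint of the other library, against 54.8% and 41.3% over all footprints of the libraries. Footprints covered 21.9% of the bases of the 70 regions in replicate 1 and 25.8% in replicate 2, against 11.5% and 14.2% in all shared regions. Tall regions hold more footprints, so the 33 regions with a mean height of at least 2.82 were set beside all 7699 shared regions of at least that height. There the shares were 33.2% and 37.5% for the clock genes, against 29.4% and 32.7%. The height of 2.82 is the median over the 62 regions of the 9 genes searched for motifs. It is a floor, and heights above it were not matched here or in the motif comparisons below. Height is thus accounted for only in part.

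E-boxes were the clock motif with the most matches. In the 62 regions of the 9 genes, 17.3 kb in all, CACGTG had 18 matches in 11 regions. That is 17.7% of the regions, against 7.93% of all shared regions, and 10.4 matches per 10 kb, against 3.14. Among all shared regions of at least the median height of 2.82, 13.1% held an E-box, with 5.34 matches per 10 kb. Of the 18 matches, 11 (61.1%) had their middle in a footprint of both libraries, against 16% of the 4675 matches in all shared regions. Among regions of at least the median height, 11 of 14 did, against 33.4% of 1178. Motifs were searched on both strands, and a match only says that the letters are present.

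The 11 footprinted E-boxes lay at 6 genes. Per1 had 3 of them, a pair in its main promoter region and another at its later start. At that later start, the footprint was chr11:69098779-69098785 in replicate 1 and chr11:69098785-69098791 in replicate 2. The footprints meet only at the middle of the match, and neither holds all of it. Nr1d1 had 3, of which a pair lay in the tall intronic region and another in the upstream region of heights 6.50 and 7.99. Dbp had 2, both in the internal region. Cry1 had 1 in its promoter, Nr1d2 had 1 in its intronic promoter region, and Cry2 had 1 in the intronic region of heights 2.82 and 3.05. The regions of Clock, Arntl and Per3 had no match. The main promoter regions of Nr1d1, Nr1d2, Dbp and Cry2 had none either, so that for these 4 genes the footprinted E-boxes lay in regions other than the tallest promoter region.

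The variant CACGTT had 6 matches, of which 1, in the Cry2 promoter, lay in a footprint of both libraries. The D-box TTATGTAA had 6 matches in 5 regions, 4 of the matches at Per3 promoters or introns and 1 each at Nr1d1 and Nr1d2. Of these, the Per3 promoter and the Nr1d1 intron had 1 each in footprints of both libraries. In all shared regions, 2.41% of 539 such matches did. Among regions of at least the median height, 2 of 4 matches did for the clock genes, against 13.5% of 52. The other form, TTACGTAA, had no match in the 62 regions. It had 71 in all shared regions, in 0.131% of them, so its absence from 62 regions says little. The cAMP response element had 4 matches, all in footprints of both libraries, against 59.9% of 861 matches in all shared regions. All 4 lay in regions of at least the median height, and in all shared regions of that height the share was 83.2% of 441. Of the 4, 1 lay in the Per1 intron and 1 upstream of Nr1d1, and the others lay at the start sites of the neighbours Vamp3, in the Per3 window, and Sphk2 and Rpl18, in the Dbp window.

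**Figure D3:**
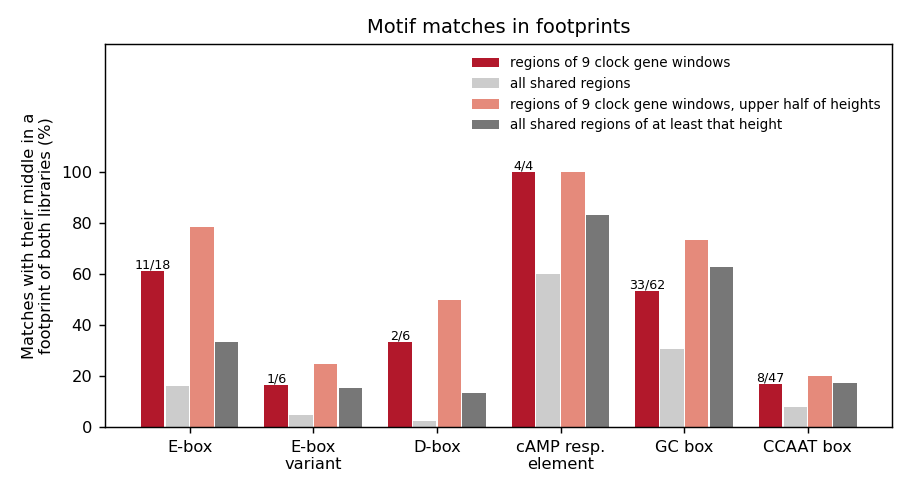
Percentage of motif matches with their middle in a footprint of both libraries, for the regions of 9 clock genes and all shared regions, then for those of mean height at least 2.82 in the same order. Labels give matches in footprints over all matches in the clock gene regions. E-boxes reach 61.1% against 16%, and 78.6% against 33.4% in the taller regions, while GC boxes reach 53.2% against 30.8% and 73.3% against 62.6%.

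The ROR element, searched as ANTAGGTCA, had no match in the 62 regions. It had 211 matches in all shared regions, in 0.390% of them, so its absence from 62 regions says little. Among the RefSeq promoters it matched Arntl, as did 0.661% of all promoters. The site, AGTAGGTCA, lies at chr7:113207539-113207547, in the first exon and its 5′ UTR, 74 bp after the first start. The deposited peaks of Arntl leave it out. It lies 119 bp after the end of the promoter region and 114 bp before the next region, and it was looked at after the values were seen. ROR elements in the promoter of mouse Arntl are the known targets of NR1D1, NR1D2 and the ROR receptors.

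In the RefSeq promoters, E-boxes were found in Cry1 and at a later start of Per1, and in 7.15% of all promoters. The variant was found in Cry1, Cry2 and Nr1d1, and in 4.68% of all. The D-box TTATGTAA was found in Per3, and in 0.938% of all. The NRF1 element, GCGCATGCG, which marks many housekeeping promoters, was found in 2 overlapping promoters of Clock, and in 1.75% of all. The main promoter region of Clock held 2 matches, of which 1 lay in a footprint of both libraries. The intronic promoter region of Nr1d2 also held matches in footprints of both libraries, and the region at Msl1 held matches in none. Over the 62 regions there were 6 matches in 3 regions (4.84%), against 1.35% of all shared regions and 5.90% of those of at least 2.82 in height. AP-1 elements, TGANTCA, had 1 match in the 62 regions (1.61% of them), in no footprint of both libraries. Of all shared regions, 9.94% held a match. Among regions of at least 2.82 in height, the 31 of the clock genes had 0 matches, and 4.20% of all shared regions held one.

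The promoters of all 10 clock genes were taller in replicate 2 than in replicate 1. The log2 ratio of replicate 2 over replicate 1 ran from 0.01 (Per2) to 0.45 (Clock), with a median of 0.15. Over 6820 genes with a mean promoter height in the range of the 10 genes, 47.8% were taller in replicate 2, and their median was -0.01. These genes share only the outer range, and heights within it were not matched. Over all promoter peaks of each library, the median height was 2.95 in replicate 1 and 2.80 in replicate 2. The gap was smaller among tall promoters, with percentile 90 at 8.54 and 8.50. Cry1 (0.37) and Clock (0.45) stood at percentiles 94.5 and 96.6 of all genes with the same site in both libraries, and the other 8 between percentiles 54.8 and 85.1. In the rest of the windows, the other regions at the clock genes' own starts were taller in replicate 2 in 7 of 13 cases, distal regions in 16 of 33 and regions at neighbouring starts in 4 of 14. Of the 16 other clock pathway genes with the same site in both libraries, 9 were taller in replicate 2. This comparison was made after the values were seen, and the heights are scaled per library.

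**Figure D4:**
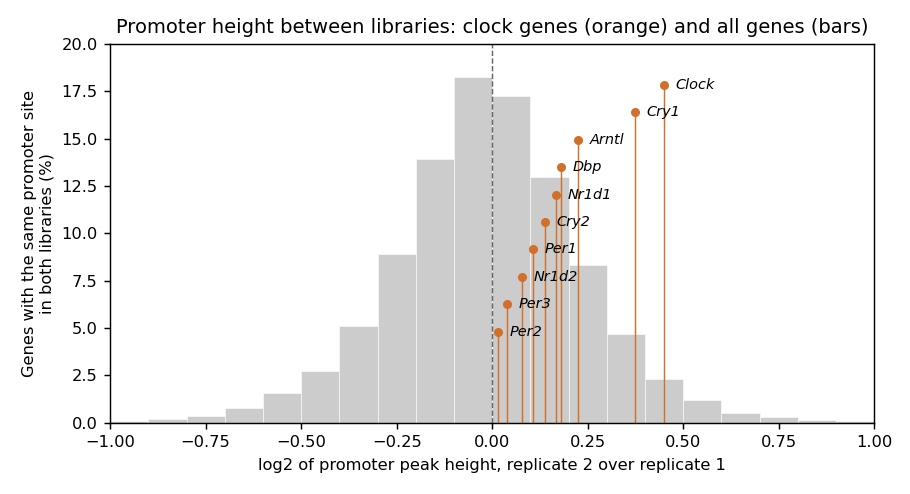
Log2 ratio of promoter height, replicate 2 over replicate 1, for the 10 clock genes (orange, whose line lengths serve only to separate the names) and all genes with the same promoter site in both libraries (grey bars, percentage of genes per 0.1). All 10 clock genes lie to the right of 0, from 0.01 for Per2 to 0.45 for Clock.

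In the 10 windows, 12 of the 82 peaks of replicate 1 were lacking in replicate 2. Of the 105 peaks of replicate 2, 34 were lacking in replicate 1. Over the genome, 75753 and 77035 peaks stood against 53624 shared regions, and the share of all peaks in 1 library alone was not computed. Of the 34, 22 lay in the Nr1d1 window, where replicate 1 had 0. Unlike shared regions, these peaks were not joined. Some of the 22 overlap each other, such as chr11:98762761-98763200 and chr11:98762901-98763520. Of these 22, 18 lay inside Thra, the thyroid hormone receptor gene that runs towards Nr1d1 on the other strand and overlaps its end by 1075 bp. The heights of all 22 were between 0.400 and 1.69, with a median of 0.830, and those of the 18 inside Thra were between 0.400 and 1.63, with a median of 0.696. Replicate 1 listed no base with a false discovery rate below 0.05 under any of the 22. Over the window, replicate 2 listed 12458 such bases and replicate 1 listed 3193, a ratio of 3.90, against 1.11 over the genome. In the shorter, stricter peak lists, 19 peaks were in replicate 2 alone and 0 in replicate 1 alone. Of all 21938 gene windows, 50 had at least 22 peaks in replicate 2 alone, and 4 had at least 22 in replicate 1 alone. The window also held 118 footprints in replicate 2 and 43 in replicate 1, of which 33 and 35 were shared. The 10 shared regions of Nr1d1 do not include these peaks, and their source was not tested.

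In the other 9 windows, 24 peaks were in 1 library alone, with heights from 0.509 to 1.73. For 7 of the 24, the other library listed bases below 0.05 under the peak. The tallest was at a later start of Per1, with 1.73 in replicate 1. The tallest of the other windows were 1.07 at a Clock start (replicate 1), 1.03 in an Arntl intron (replicate 1) and 0.776 at Ilkap in the Per2 window (replicate 2). They were 0.752 at the Per3 start (replicate 1), 0.976 at the Cry1 start (replicate 2) and 1.04 beyond the end of Cry2 (replicate 2). Nr1d2 had 0.764 in an intron (replicate 1), and the Dbp window had 1.06 at Car11 (replicate 2). In the Nr1d1 window the tallest, 1.69 in replicate 2, lay at Msl1. None of these reached the height of a main promoter region of the 10 genes.

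**Figure D5:**
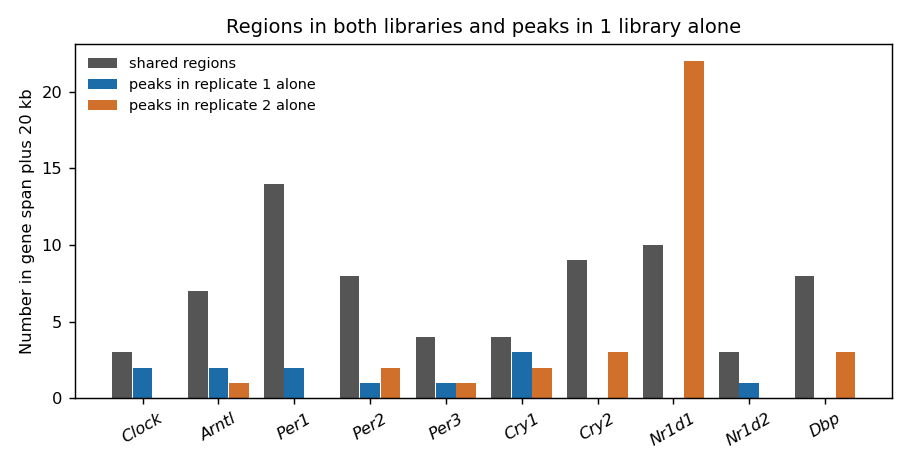
Number of shared regions (grey), of peaks in replicate 1 alone (blue) and of peaks in replicate 2 alone (orange) in each gene span plus 20 kb. The Nr1d1 window has 22 peaks in replicate 2 alone and 0 in replicate 1 alone, and no other window has more than 3 in either. Overlapping peaks of 1 library alone are counted separately.

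The wider clock pathway was open throughout, at lower heights. All 20 other genes examined were open at the promoter in both libraries, against 59.7% of all protein-coding genes. Of the 20, 16 had the peak at the same site in both. The median mean height was 9.61 for the 10 core genes, against 2.10 for these 16. The tallest was Gsk3b, a kinase of several clock proteins, with 19.7 in replicate 1 and 20.2 in replicate 2. Btrc, the F-box protein that marks PER proteins for degradation, had 14.7 and 14.9. Tef, a relative of Dbp that also binds D-boxes, had 10.4 and 12.7 at different sites. The activator paralogs were among the low ones, Arntl2 with 1.19 and 0.742 and Npas2 with 1.13 and 1.17. NPAS2 can replace CLOCK in the mouse forebrain, and the Clock promoter stood at percentile 47.0 where that of Npas2 stood at 15.7. Rora and Rorb are genes of ROR receptors. Rorb had 2.25 in replicate 1 and 1.82 in replicate 2, and Rora had 1.16 and 1.51 at different sites.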

How the data were processed

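DNase-seq peaks, footprints and cut rates of 2 libraries of 1 tissue were used. Per the deposited file descriptions the files were made per library, not pooled, in assembly mm10. The aligner, the callers and their versions are not given in the sources used here. Peak height is the signal value the authors deposited per library, on a scale not stated, so no counting interval could be given, and the gap between the libraries is the only measure of precision. Footprints carry the constant 0.01 in the deposited p-value or q-value column, read as the calling threshold. The deposited track of cut rates holds q-values (false discovery rates) for runs of bases, all below 0.05 in both libraries.

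The longer of the 2 deposited peak lists of each library was used. Peaks of the libraries that overlapped by at least 1 bp were joined into shared regions, overlapping ones into 1, with the tallest height of each library. In the longer lists, 1394 peaks of replicate 1 and 2715 of replicate 2 overlap another peak of their own list. Start sites (93513) are those of all transcripts of GENCODE M21 protein-coding genes, on the files' assembly, and 0 peaks ran beyond a chromosome end. Sequences, and RefSeq promoters (300 bases around a start), are of GRCm38.p6. The 11 motifs were searched on both strands. No strain variants were used, and their effect on mapping in the F1 hybrid was not tested. The scripts were tested on simulated data. Python 3.11.15, numpy 2.4.6, pysam 0.24.0 and samtools 1.23.1 were used.

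The genes, lists and motifs were chosen with earlier results of these data known. The rule for named items took all 10 genes with every region at their own starts in counts and the main ones by value, up to 4 distal regions of each window by mean height, the tallest peak of each window in 1 library alone, the 3 tallest and 3 lowest promoters of 20 other pathway genes (1 of which is not reported here), and up to 8 stretches of up to 120 bases around footprinted clock motifs. The joining of overlapping regions, the limit on height, the ratio of the libraries, the count of peaks in 1 library alone over all windows, GC content, motifs per single promoter, the share of footprint bases, the placing of the printed stretches and the Arntl site were added after values were seen.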

Additional observations from a re-analysis of the deposited data

How the results depend on the processing

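The heights of the 10 promoters stayed within the spread between libraries under all 40 alternatives tried (promoter windows of 500 and 2000 bp, the shorter peak lists, start sites of protein-coding transcripts alone). Nearly all of these picked the same deposited peak again, so they are a weak check. Only Nr1d1 changed, from 12.95 to 12.97 with the window of 2000 bp. The counts of promoters open in both libraries, 10 of core and 20 of other genes, and the 18 clock motif matches in footprints of both libraries stayed within 1.5 times of their values under every alternative tried. The 70 shared regions became 110 with 50 kb on both sides, 33 over the gene span alone and 46 with the shorter peak lists. The 33 distal regions became 50, 16 and 15 under the same settings. The 242 shared footprints became 74 over the gene span alone. When 1 library was left out, so that its partner's own calls were counted, the values were 82 to 105 peaks, 40 to 56 distal peaks, 313 to 436 footprints and 20 to 23 motif matches, and the higher value was each time that without replicate 1. Nr1d1 had most of this gap, with 32 peaks without replicate 1 against 10 shared regions. Its 10 regions became 4 with 10 kb on both sides and 6 with the shorter lists. Of 155 alternatives, 125 left the value the same and 30 moved it. A count was called the same within 1.5 times of its value, and a height within the spread between libraries. No paired analysis was possible because there is only 1 group. Counts of peaks and footprints depend on read depth, which is not given in the sources used here.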
